A study of Caenorhabditis elegans with 10 samples.

Results

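Transcripts of 6 genes for cadherins and catenins were described in ribosome-depleted total RNA of germline tumours dissected from the worm Caenorhabditis elegans. They were the rows named cdh-4, cdh-12, hmr-1, hmp-1, hmp-2 and jac-1 among 46536 genes of the authors' table, with 1 row kept per gene. All worms were of the Bristol strain, and the mutations gld-2(q497) gld-1(q485), with which germ cells divide instead of completing meiosis, were present in both groups. In addition 5 libraries, called ON, had the glp-1(ar202) allele, in which the germline Notch receptor GLP-1 is overactive, and 5 libraries, called OFF, had the null allele glp-1(q175). Synchronised larvae were grown for 48 h at 25 °C, and adults were dissected at 1 day of age. The design compares germ cells with and without Notch signalling in tumours that form in both states. No wild-type germline was included. The design text calls the libraries of a group biological replicates, without saying how many germlines or which cultures each one holds.

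Cadherins are membrane proteins whose extracellular repeats bind calcium and hold neighbouring cells together. In the classical complex a cadherin binds a beta-catenin, which binds an alpha-catenin, which reaches the actin cytoskeleton, while a p120-catenin binds the cadherin close to the membrane. In C. elegans the classical cadherin is HMR-1, the beta-catenin is HMP-2, the alpha-catenin is HMP-1 and the p120-catenin is JAC-1. CDH-4 is a large Fat-like cadherin known for roles in axon guidance and neuroblast migration, and little is known of CDH-12.

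The genes were chosen by name with the ON and OFF levels of these same libraries known, so they count as selected on those levels. Their differences are therefore given as a description with standard errors and without p-values. Of the 6 genes, 5 had at least 1 CPM (the usual depth-scaled read count, relative to all reads assigned to genes) in at least 5 libraries and entered the fit over 6833 genes, and jac-1 did not. In that fit 1 of the 5 was called higher (cdh-12), 1 was called lower (cdh-4) and 3 had no call at an adjusted p under 0.05 (limma). Over all tested genes 19.1% were called, 6.7% higher and 12.4% lower in ON, and nothing about the 5 genes is read from that share. Of all calls 35.1% were higher in ON, against 47.5% after TMM scaling of the libraries. The groups did not overlap for cdh-4 and cdh-12, as for 14.9% of tested genes.

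The libraries held 17.5 to 38.5 M reads in genes, so 1 read was worth 0.0260 to 0.0571 CPM. Ribosomal RNA took 40.1 to 49.6% of reads in ON and 38.9 to 50.7% in OFF. Summed germline markers (8 genes, among them pgl-1 and glh-1) reached 1873 to 2681 CPM in ON against 1917 to 2771 CPM in OFF. Of the 8, 3 were called lower (htp-3, cgh-1 and fbf-1), beside 12.4% of all tested genes. The glp-1 gene itself, whose alleles define the groups, was at 248 ± 28.2 CPM in ON against 88.2 ± 13.5 CPM in OFF (n = 5, SD). Most markers of other cells were low, while fln-1, snb-1 and lin-26, listed as markers of spermatheca, neurons and hypodermis, were abundant in every library, and unc-13 reached 24.1 CPM in OFF replicate 2. The 3 markers of the distal tip cell, including lag-2, and the 3 of coelomocytes stayed under 1 CPM in every library, as did the intestinal regulator elt-2 and the cuticle collagens dpy-7 and rol-6. Of the same lists, the yolk protein genes vit-6 and vit-2 reached 6.63 and 2.15 CPM, and the cuticle collagen bli-1 reached 2.68 CPM. The 6 markers of the gonadal sheath, the somatic cells that wrap the germline, summed to 27.6 to 39.5 CPM in ON against 35.0 to 48.5 CPM in OFF. Of the 5 tested ones 2 were called lower (lim-7 and mup-2), again beside 12.4% of all tested genes. In bulk tissue, fewer cells of a type and less RNA per cell cannot be told apart.

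**Figure D1:**
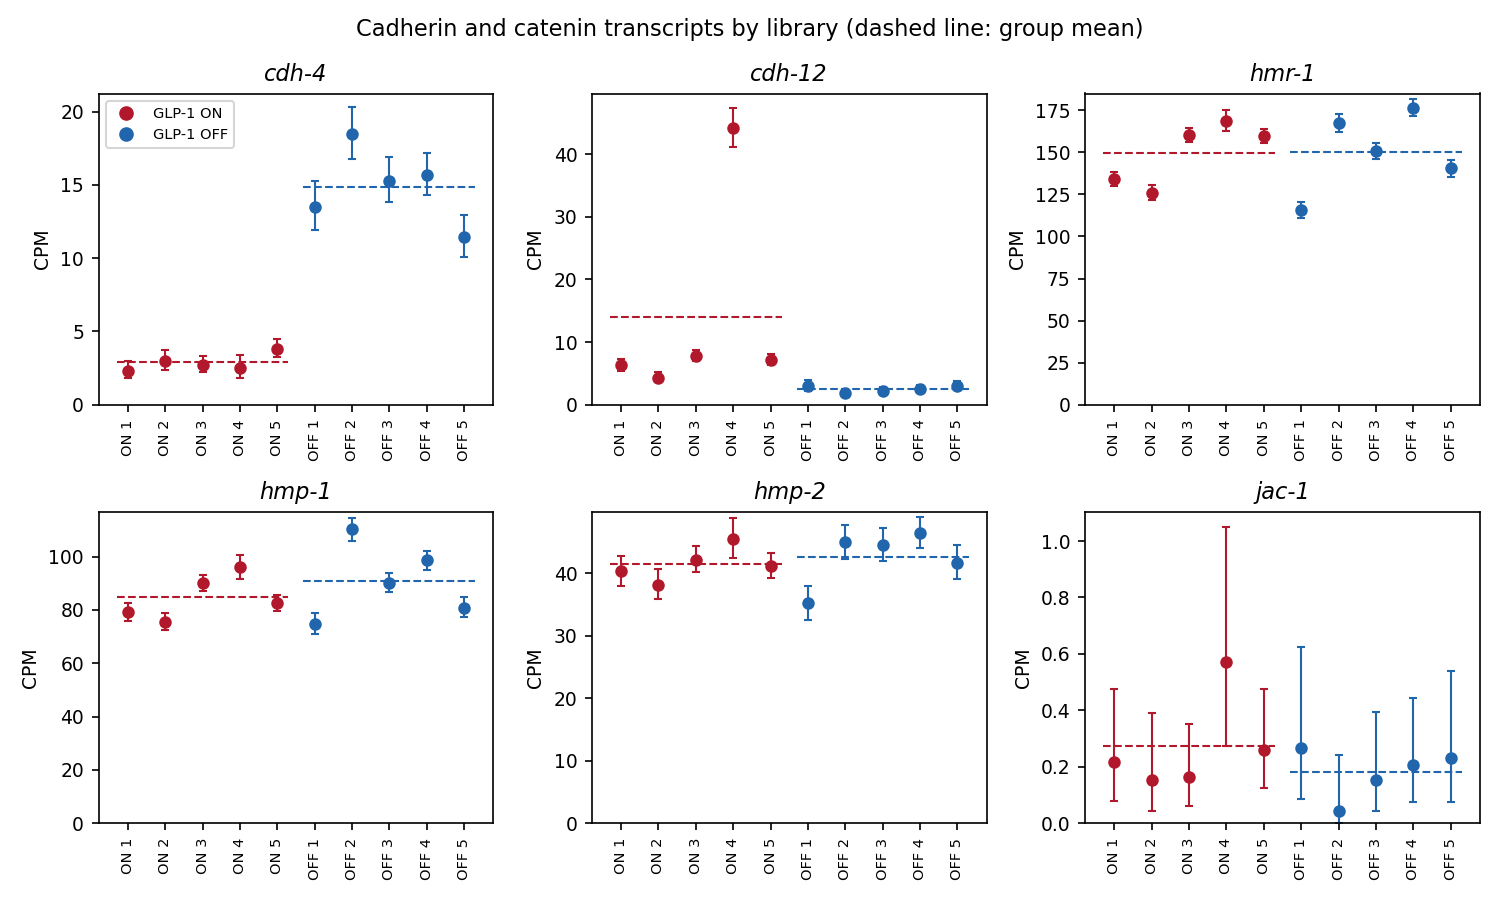
CPM of the 6 genes in each of the 10 libraries. Points are libraries (red ON, blue OFF), bars are 95% Poisson intervals that cover counting error only, and dashed lines are group means. The OFF libraries of cdh-4 lie above all ON libraries, cdh-12 has 1 far library (ON 4 at 44.2 CPM), and hmr-1, hmp-1, hmp-2 and jac-1 overlap between groups.

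The Fat-like cadherin gene cdh-4 was low in ON and several times higher in OFF. It lies on chromosome III (WBcel235, 4520357 to 4536994, plus strand), where the Ensembl annotation gives a single transcript that encodes 4328 residues over 13422 exonic bases. In ON the level was 2.33, 3.01, 2.73, 2.51 and 3.82 CPM in replicates 1 to 5. In OFF it was 13.5, 18.5, 15.3, 15.7 and 11.4 CPM. The highest ON library thus stayed well under the lowest OFF library, which was replicate 5. The means were 2.88 ± 0.582 CPM in ON against 14.9 ± 2.62 CPM in OFF (n = 5, SD), or 5.17 times higher in OFF. The log2 difference was -2.03 with a standard error of 0.12 on the log2(CPM + 1) scale.

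Since the groups of cdh-4 do not overlap, its direction is fixed in any subset of the libraries, and only its size can vary. Library numbers fall into 3 runs, 56 to 58 and 85 to 88 with 1 ON and 2 OFF libraries each, and 127 to 130 with 3 ON and 1 OFF, and the labels do not say whether a run was a batch. Within these runs the cdh-4 log2 difference was -2.34, -2.04 and -1.64. When each library was left out in turn it ran from -2.11 to -1.95. The counts behind the values were 44 to 147 reads in ON and 248 to 460 reads in OFF, so counting error in single ON libraries is not small. The 95% Poisson interval of the shallowest one, replicate 4, was 1.83 to 3.37 CPM.

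The tested neighbouring genes, mrps-34 and cct-5, did not show the cdh-4 pattern. The genes ugt-62 and F25F2.1 were below the filter and were not tested. The closest protein-coding gene downstream, ugt-62, lies 287 bases away on the other strand and was at 0.150 CPM in ON against 0.184 CPM in OFF. The next one, mrps-34, which encodes a mitochondrial ribosomal protein, was at 40.2 ± 2.07 CPM and 40.02 ± 5.22 CPM (limma adjusted p = 0.946). Upstream, F25F2.1 was at 0.368 and 0.535 CPM, and the chaperonin gene cct-5 was at 477 ± 40.1 CPM and 427 ± 44.9 CPM (limma adjusted p = 0.296, and 0.012 after TMM scaling). The 2 non-coding genes that overlap cdh-4, F25F2.3 and F25F2.5, were at 0 in all libraries apart from F25F2.3 at 0.0534 CPM in OFF replicate 1.

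The genes whose levels followed cdh-4 most closely over the 10 libraries were called lower in ON as well. By Pearson r on log2(CPM + 1) they were gei-8 (0.994), which encodes a nuclear receptor co-repressor homolog, C27D8.1 (0.991), the P granule gene pgl-2 (0.990), Y106G6G.2 (0.989) and kin-32 (0.989), which encodes a focal adhesion kinase homolog. The level of gei-8 was 2.02 ± 0.310 CPM in ON against 9.17 ± 2.25 CPM in OFF, and that of C27D8.1 was 0.626 ± 0.195 CPM and 3.25 ± 0.396 CPM (n = 5, SD). These correlations are mostly the difference between the groups, which all of the genes share, and they are a description. The shared direction of the calls follows from picking genes by their likeness to cdh-4. C27D8.1 and kin-32 met the filter of 1 CPM in 5 libraries only through OFF, where they were higher.

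Chromosome III, which holds cdh-4 and cdh-12, also holds glp-1. Of the genes that follow cdh-4, gei-8 and pgl-2 lie 0.981 and 0.422 Mb before glp-1 by annotated start, and cdh-4 lies 4.57 Mb before it. The strains were selected for different glp-1 alleles, so for genes on III linked sequence differences and GLP-1 state cannot be told apart. Calls made up 17.8% of tested genes on III and 19.1% of all tested genes. Called differences whose size was 1 or more in log2 made up 1.37% on III and 1.54% of all. In windows of 2 Mb along III the share called ran from 10.2% (0 to 2 Mb, with cdh-12) to 23.2% (2 to 4 Mb). It was 21.1% at 4 to 6 Mb, with cdh-4, and 17.3% at 8 to 10 Mb, with glp-1. The large differences on III numbered 21, with 6 at 2 to 4 Mb, 6 at 4 to 6 Mb and 1 to 4 in each other window. The part of linkage in these shares was not tested.

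The second cadherin gene of chromosome III, cdh-12 (1152044 to 1181147, plus strand), moved the opposite way and had 1 exceptional library. The annotation gives a longest product of 2893 residues. The level was 6.33, 4.31, 7.83, 44.2 and 7.19 CPM in ON replicates 1 to 5. It was 2.99, 1.91, 2.18, 2.49 and 2.998 CPM in OFF. Each ON library was above each OFF library, and replicate 4 was 5.64 times the next highest ON library. The 44.2 CPM rest on 773 reads, with a 95% Poisson interval of 41.1 to 47.4 CPM that covers counting error only.

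With all libraries the ON mean of cdh-12 was 13.96 ± 16.9 CPM against 2.51 ± 0.483 CPM in OFF (n = 5, SD), or 5.55 times higher. Without ON replicate 4 the ON mean was 6.41 ± 1.53 CPM (SD, n = 4), or 2.55 times the OFF mean, and the log2 difference was 1.06 in place of 1.59 (standard error 0.36 with all libraries). Leaving out any other library gave 1.52 to 1.83. Within the runs of library numbers the log2 difference was 1.10, 0.67 and 1.89, and in the last run, which contains replicate 4, it was 1.09 without that library. Its direction is fixed in each of these by the lack of overlap between the groups.

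The excess in ON replicate 4 was not shared by the genes around cdh-12. The plus-strand neighbour smr-1, which lies 6833 bases upstream, was at 52.04 CPM in that library and 45.2 to 49.6 CPM in the other ON libraries. The gene acsd-1 was listed at 0 there. The gene eak-3 lies inside the span of cdh-12 on the other strand without shared exons, and its 0.0571 CPM in replicate 4 are 1 read. The downstream gene Y119D3B.13 was at 0.457 CPM, within the 0.229 to 0.594 CPM of the other ON libraries. Of these neighbours only smr-1 met the filter and was tested.

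**Figure D2:**
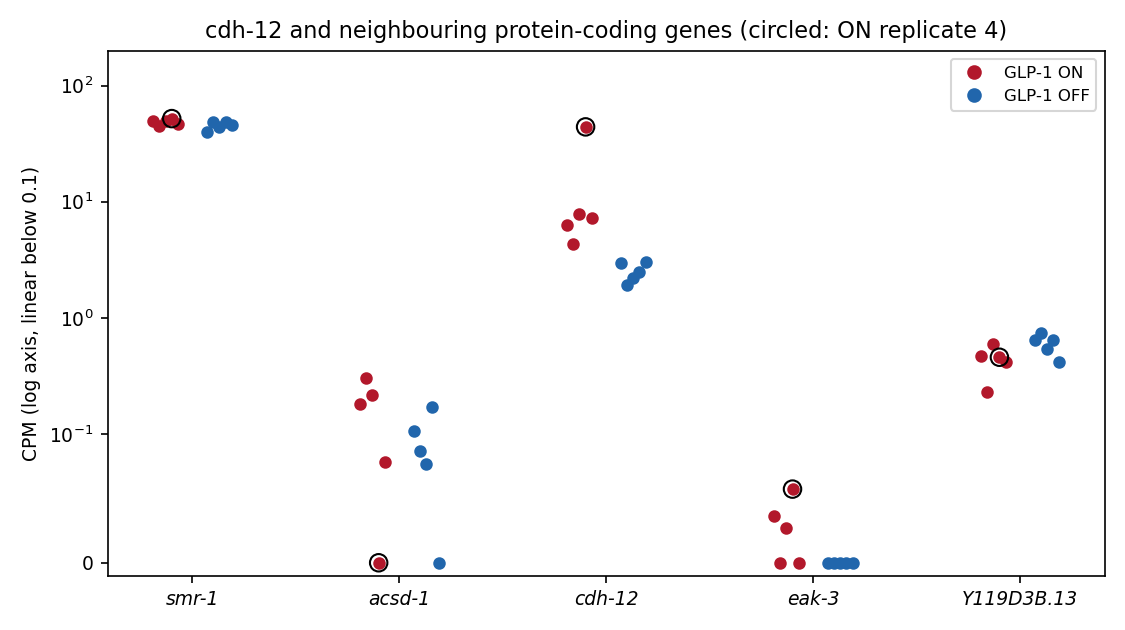
CPM of cdh-12 and the 2 nearest protein-coding genes on each side, in chromosomal order, on an axis that is logarithmic above 0.1 CPM and linear below. Points are libraries (red ON, blue OFF), with ON replicate 4 circled. That library is far above the rest for cdh-12 (44.2 CPM) and not for smr-1, acsd-1 or Y119D3B.13, and its value for eak-3 is 1 read.

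Such single high libraries were rare among tested genes and not limited to ON replicate 4. A library at 1 CPM or more and at least 5 times the next highest of its group was found for 5 of 6833 genes, each in a different library. Besides cdh-12 these were frm-2 in ON replicate 1, pmp-3 in OFF replicate 1, C34H4.2 in OFF replicate 2 and iglr-3 in OFF replicate 3, named here after their values were seen. The excess of cdh-12 was the smallest of the 5, and that of iglr-3 the largest, at 50639 CPM against 5.17 CPM. Genes below the filter were not scanned, so genes that were low apart from 1 library are left out. The untested gene unc-13 was at 24.1 CPM in OFF replicate 2 and at most 1.15 CPM in the other OFF libraries.

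Over the 10 libraries the highest Pearson r with cdh-12 was 0.930 for the histone gene his-60, followed by C04G6.6 (0.929), T28D6.4 (0.925), and the histone genes his-67 (0.908) and his-59 (0.905). All of them had their ON replicate 4 value above their ON mean, for example 2120 CPM against 1777 ± 226 CPM for his-60 and 2.40 CPM against 1.55 ± 0.492 CPM for T28D6.4. A high value in that library follows from picking genes by their likeness to cdh-12 with it included. Without that library r was 0.975 for his-60, 0.922 for T28D6.4, 0.914 for his-67, 0.880 for his-59 and 0.72 for C04G6.6. These correlations include the difference between the groups, and they are a description. Histone genes have near-identical copies, so the values of single copies are uncertain. T28D6.4 met the filter of 1 CPM in 5 libraries only through ON, where it was higher.

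The genes of the core adhesion complex were abundant in both states and had no call. The classical cadherin gene hmr-1 (chromosome I, 11075755 to 11134667, minus strand) was at 134, 126, 160.5, 169 and 159.7 CPM in ON replicates 1 to 5. In OFF it was at 116, 167, 151, 177 and 140.4 CPM. The groups covered the same range, with the lowest and the highest library both in OFF. The means were 149.8 ± 18.6 CPM and 150.2 ± 23.9 CPM (n = 5, SD). The log2 difference was 0.00, with a 95% interval of -0.24 to 0.25 that leaves room for a modest change either way.

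The alpha-catenin gene hmp-1 (chromosome V, 11845871 to 11852166, plus strand) gave 79.3, 75.7, 90.1, 96.0 and 82.6 CPM in ON. It gave 74.8, 110.2, 90.3, 98.6 and 80.9 CPM in OFF. The ON libraries fell inside the range of the OFF libraries. The means were 84.7 ± 8.27 CPM and 91.0 ± 14.1 CPM (n = 5, SD), a log2 difference of -0.09 with a 95% interval of -0.32 to 0.14.

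The beta-catenin gene hmp-2 (chromosome I, 14738882 to 14742671, plus strand) varied least of the 6 in deposited CPM, while hmp-1 varied least after TMM scaling. It was at 40.3, 38.2, 42.2, 45.5 and 41.3 CPM in ON against at 35.2, 45.0, 44.6, 46.5 and 41.7 CPM in OFF, again with ON inside the range of OFF. The means were 41.5 ± 2.69 CPM and 42.6 ± 4.47 CPM (n = 5, SD), a log2 difference of -0.03 with a 95% interval of -0.23 to 0.17. After TMM scaling the log2 difference of hmp-2 was 0.01. Its coefficient of variation over the 10 libraries, 8.37%, was higher than that of only 6.37% of tested genes, while those of cdh-4 (74.02%) and cdh-12 (155%) were higher than that of 99.3% and 99.9%. For cdh-4 and cdh-12 it includes the difference between the groups, known when the genes were chosen, so these ranks are a description. Within groups that of cdh-12 was 121% in ON, which holds the high replicate 4, and 19.2% in OFF.

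The 3 core genes rose and fell together between libraries, and these shifts ran across both groups. OFF replicate 1 had the lowest value of each, and ON replicate 2 the second lowest of each. These were the libraries with the largest shares of ribosomal RNA, 50.7% and 49.6%. The libraries with the smallest shares, OFF replicate 2 at 38.9% and ON replicate 4 at 40.1%, were among the highest 3 for each gene, together with OFF replicate 4. After TMM scaling, which sets libraries level on the bulk of genes, the coefficient of variation over 10 libraries fell from 13.4% to 7.71% for hmr-1, from 12.9% to 4.98% for hmp-1 and from 8.37% to 5.35% for hmp-2. Such a fall was not particular to the core genes. It was also seen for mom-5 (11.3% to 4.99%) and pkc-3 (14.3% to 6.64%), though not for ost-1 (9.53% to 9.70%). The groups still overlapped, with hmr-1 at 139 to 159 CPM in ON against 126 to 161 CPM in OFF. For cdh-4 scaling left the groups apart, at 2.37 to 3.80 CPM in ON against 12.3 to 15.7 CPM in OFF.

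**Figure D3:**
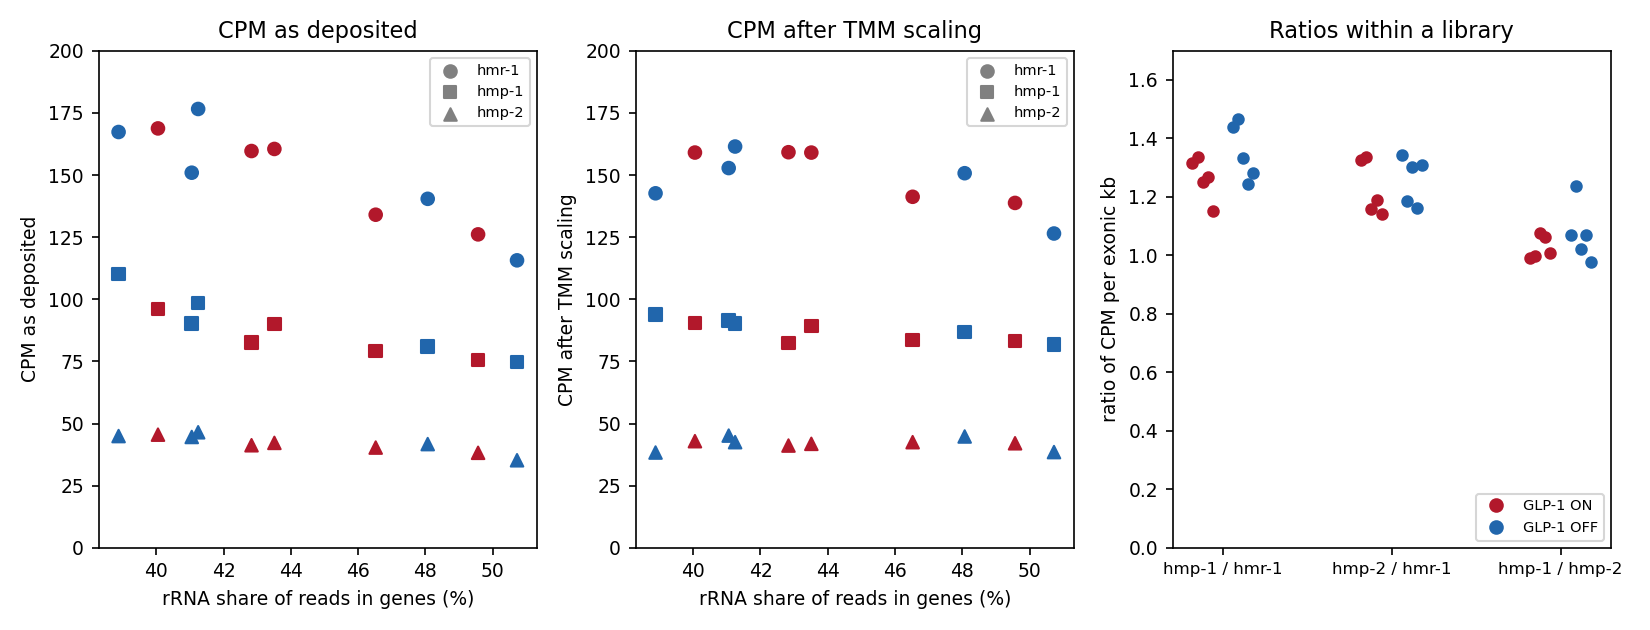
Left and centre, CPM of hmr-1, hmp-1 and hmp-2 against the share of ribosomal RNA in each library, as deposited and after TMM scaling. Right, ratios of CPM per exonic kilobase between pairs of these genes within each library. Points are libraries (red ON, blue OFF); the deposited values fall as the ribosomal share rises, and the ratios of ON and OFF overlap for every pair.

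Ratios between the 3 genes within a library, on CPM per kilobase of annotated exon, do not depend on library scaling. The ratio of hmp-1 to hmr-1 was 1.26 ± 0.0722 in ON and 1.35 ± 0.0971 in OFF (n = 5, SD). The ratio of hmp-2 to hmr-1 was 1.23 ± 0.0941 and 1.26 ± 0.0818, and that of hmp-1 to hmp-2 was 1.03 ± 0.0394 and 1.08 ± 0.098. For each pair ON and OFF libraries overlapped, and the coefficient of variation over 10 libraries was 7.13%, 6.79% and 7.1%. The exon length used covers all annotated isoforms. The hmr-1 gene also encodes a longer isoform known from neurons, so the level per length of hmr-1 would be understated where germ cells use the shorter one.

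The p120-catenin gene jac-1 (chromosome IV, 15997835 to 16026847, minus strand) was barely detected. It was at 0.218, 0.152, 0.162, 0.571 and 0.260 CPM in ON against at 0.267, 0.0434, 0.153, 0.205 and 0.231 CPM in OFF. These values are 1 to 10 reads per library, and the groups overlapped. The highest, ON replicate 4, has a 95% Poisson interval of 0.274 to 1.05 CPM. The lower end of that interval lies just above the values of the other ON libraries. It overlaps the interval of the next highest, replicate 5 (0.124 to 0.477 CPM). A non-coding gene inside the span of jac-1 on the same strand, Y105C5B.1414, was at 0.230 to 0.600 CPM, in the same range as jac-1. No difference in jac-1 was fitted.

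Per exonic kilobase the 6 genes formed 2 tiers. In ON, hmp-1 was at 18.9 ± 1.84, hmp-2 at 18.3 ± 1.19 and hmr-1 at 15.002 ± 1.86 CPM per kilobase, followed by cdh-12 at 1.56 ± 1.89, cdh-4 at 0.214 ± 0.0434 and jac-1 at 0.0656 ± 0.0415 (n = 5, SD). The cdh-12 mean was lifted by ON replicate 4, at 4.92 CPM per kilobase against 0.480 to 0.872 in the other ON libraries. In OFF the order was hmp-1 at 20.3 ± 3.14, hmp-2 at 18.8 ± 1.97, hmr-1 at 15.04 ± 2.39, cdh-4 at 1.11 ± 0.195, cdh-12 at 0.280 ± 0.0538 and jac-1 at 0.0432 ± 0.0209 CPM per kilobase. The 2 catenins did not differ beyond their spread in either group, and cdh-4 and cdh-12 exchanged places. In CPM, hmr-1 was above 89.7% of the 6833 tested genes by its mean over all libraries, hmp-1 above 79.7%, hmp-2 above 59.9%, and cdh-4 and cdh-12 above 26.9% and 26.1%. The rank of cdh-12 includes that high library.

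**Figure D4:**
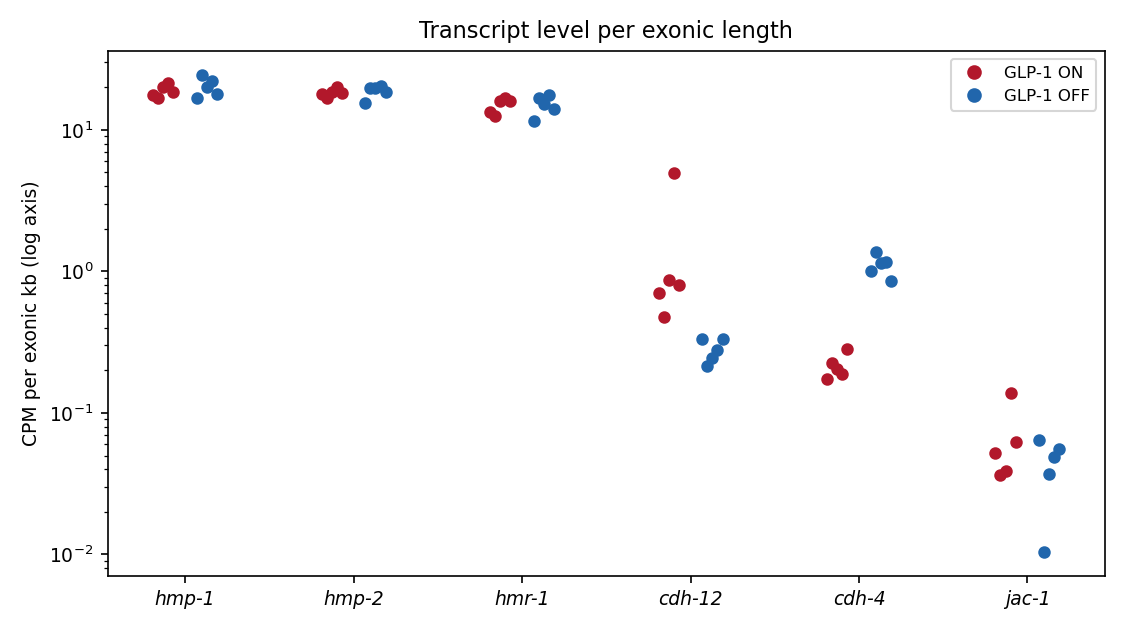
CPM per kilobase of annotated exon for the 6 genes, on a log axis. Points are libraries (red ON, blue OFF). The 3 genes of the core complex lie together near 10 to 25 CPM per kilobase, cdh-12 and cdh-4 exchange places between the groups, and jac-1 lies lowest.

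Of the 9 other cadherin-type genes of the worm, 3 were tested, 1 rose, 0 fell and 2 had no call. Over all tested genes 6.7% were called higher and 12.4% lower. The Dachsous-like cadherin gene cdh-1 rose in ON, and it met the filter of 1 CPM in 5 libraries only through ON, where it was higher. It was at 1.49, 2.06, 1.92, 2.46 and 3.27 CPM in ON against at 0.694, 0.999, 0.651, 1.06 and 0.738 CPM in OFF, without overlap. The means were 2.24 ± 0.672 CPM and 0.828 ± 0.187 CPM (n = 5, SD), a ratio of 2.704 and a log2 difference of 0.81 with a standard error of 0.13 (limma adjusted p = 1.6e-04, and 0.00167 without the filter). Within the runs of library numbers it was 0.44, 0.73 and 1.01. In other animals Dachsous is a binding partner of Fat cadherins, the family to which CDH-4 belongs.

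The other tested cadherin genes were cdh-5, at 3.68 ± 0.895 CPM in ON against 2.74 ± 0.618 CPM in OFF (limma adjusted p = 0.110, and 0.0286 after TMM scaling), and the calsyntenin gene casy-1, at 2.73 ± 0.322 CPM and 2.90 ± 0.652 CPM (limma adjusted p = 0.813; SD, n = 5). The remaining 6, which are the Fat-like gene cdh-3, cdh-7, cdh-8, cdh-9, cdh-10 and the Flamingo homolog fmi-1, never exceeded 0.571 CPM or 15 reads in a library.

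Genes that work with cadherins and catenins were counted in 5 lists, and over all tested genes 19.1% were called, 6.7% higher and 12.4% lower. In the Wnt and beta-catenin pathway 2 of 13 tested genes rose, 0 fell and 11 had no call, with a median log2 difference of -0.05 beside -0.05 over all tested genes. The MAP kinase kinase kinase gene mom-4 rose, at 29.9 ± 4.62 CPM in ON against 19.9 ± 3.38 CPM in OFF (n = 5, SD; limma adjusted p = 0.002), as did the Axin homolog pry-1, at 4.15 ± 0.914 CPM against 2.84 ± 0.845 CPM (limma adjusted p = 0.0412). The pry-1 call was lost for 7 of the 10 libraries when they were omitted singly (limma adjusted p of 0.0768 to 0.105; it held without ON replicate 1 or 2 or OFF replicate 4) and with library-number run as a covariate (adjusted p = 0.141) or no filter on low values (adjusted p = 0.127), and its log2 difference was -0.07 within the second run. The casein kinase gene kin-19, the most abundant of the list, was at 128 ± 22.995 CPM and 131 ± 22.02 CPM (limma adjusted p = 0.890). The beta-catenins of Wnt signalling, wrm-1 and sys-1, had no call, at 48.7 ± 5.17 CPM and 60.1 ± 10.3 CPM for wrm-1 and 22.8 ± 4.11 CPM and 20.2 ± 3.46 CPM for sys-1, and bar-1 was not tested. After TMM scaling 2 genes of this list rose and 3 fell, wrm-1 among them. On that scale 1129 of all 6833 tested genes were called higher and 1247 lower.

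Among genes of the apical junction and cell polarity 0 of 14 rose, 2 fell and 12 had no call (median log2 difference -0.18). Both that fell act at cell contacts together with HMR-1 in embryos. The gene picc-1, whose product links a polarity regulator to JAC-1, was at 30.7 ± 3.02 CPM in ON against 44.5 ± 6.97 CPM in OFF (n = 5, SD; limma adjusted p = 0.002), without overlap. The L1-type adhesion gene sax-7 was at 130.3 ± 17.5 CPM and 174.9 ± 32.03 CPM (limma adjusted p = 0.0248), with overlap. When single libraries were omitted, that call was lost for ON replicate 1 and for OFF replicates 2, 3 and 4 (limma adjusted p of 0.0632 to 0.0849), and it was lost without the filter on low values (adjusted p = 0.0803). After TMM scaling 2 rose and 4 fell, beside 1129 higher and 1247 lower of all 6833 tested genes.

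Of the integrin adhesion genes 3 of 11 tested fell, 0 rose and 8 had no call, with a median log2 difference of -0.32, beside 12.4% lower over all tested genes. Of the 3, pat-6 and kin-32 met the filter only through OFF, where they were higher. The parvin homolog pat-6 was at 0.755 ± 0.135 CPM in ON against 1.80 ± 0.375 CPM in OFF (n = 5, SD; limma adjusted p = 2.6e-04, and 0.00166 without the filter), and kin-32 at 0.603 ± 0.104 CPM and 1.45 ± 0.1001 CPM (limma adjusted p = 1.9e-04, and 8.2e-04 without the filter). The alpha-integrin gene ina-1 was at 4.92 ± 0.577 CPM and 6.69 ± 0.9995 CPM (limma adjusted p = 0.0181), a call lost without ON replicate 2 (adjusted p = 0.0568) and without the filter on low values (adjusted p = 0.0505). The 3 genes did not overlap between groups. The beta-integrin gene pat-3, at 46.6 ± 5.41 CPM and 50.8 ± 8.45 CPM, had no call. Muscle and sheath cells are known to use these genes, and the summed sheath markers given above were lower in ON with overlap, while 6 muscle markers summed to 8.35 to 22.7 CPM in ON against 10.7 to 19.1 CPM in OFF with 0 calls. Their part in the integrin counts was not tested. After TMM scaling 5 genes fell and 0 rose, beside 1247 lower and 1129 higher of all 6833 tested genes.

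Of the basement membrane genes 10 were tested and 0 were called (median log2 difference -0.10), among them the collagen IV genes let-2, at 35.1 ± 12.4 CPM and 38.2 ± 8.19 CPM, and emb-9, at 22.9 ± 5.95 CPM and 23.4 ± 5.71 CPM (n = 5, SD). Without ON replicate 5 the limma fit called 3 of them. The collagen XVIII homolog cle-1 was at 10.9 ± 1.92 CPM and 12.6 ± 1.21 CPM (limma adjusted p = 0.243). Of the planar polarity and Hippo genes 1 of 7 was tested, yap-1, at 0.959 ± 0.330 CPM and 1.42 ± 0.252 CPM (limma adjusted p = 0.0983).

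**Figure D5:**
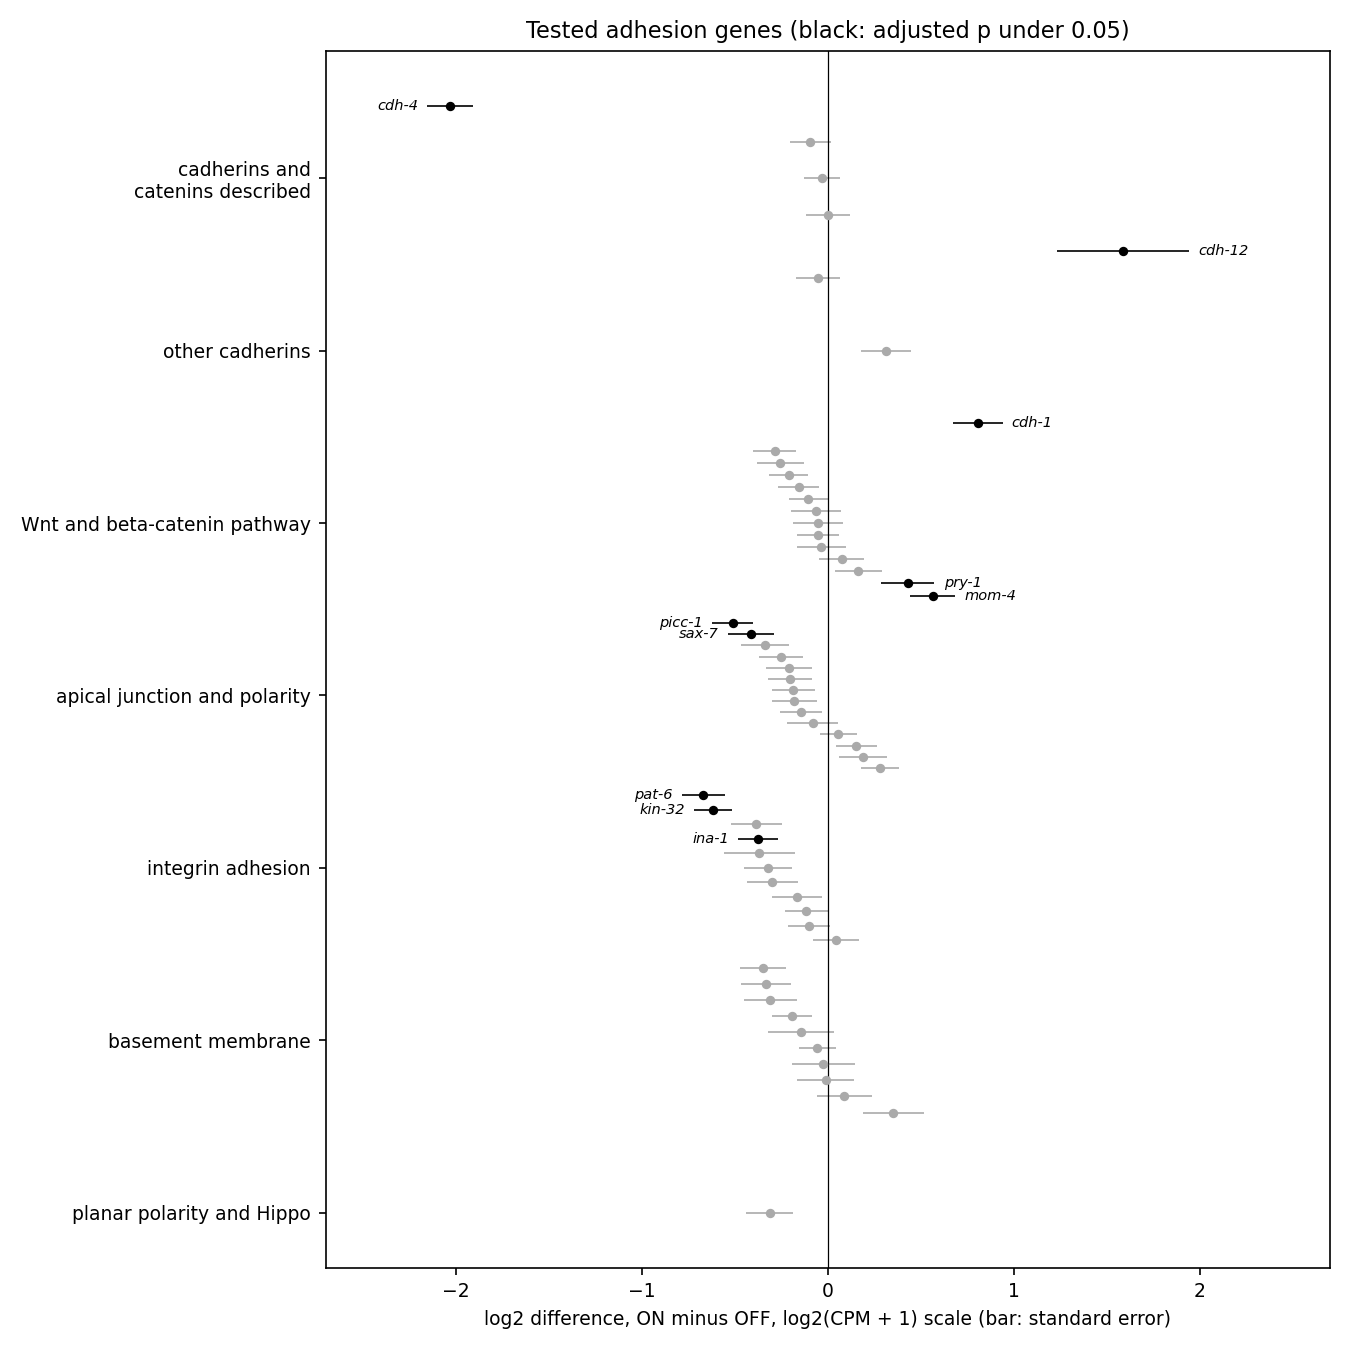
Log2 difference (ON minus OFF, log2(CPM + 1) scale) with its standard error for every tested gene of the lists, ordered by size within each list, in black where the limma adjusted p was under 0.05. Most genes lie near 0; cdh-4 (-2.03) and cdh-12 (1.59), which were chosen with these differences known, lie farthest out, and cdh-1 (0.81) is next.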

How the data were processed

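The authors used STAR 2.0.4b, Subread's featureCounts 1.4.5, limma and edgeR, per the submitters' processing notes. Build, annotation and strand setting of that step: not given in the sources used here. Values of the deposited table are a signal in CPM made by the authors. The unit was recorded as a signal because 462 of 46998 rows repeat a gene and lift the column sums, so 1 row per gene was kept. Division by each library's lowest non-zero value gave whole reads for 100% of values within 0.01 read. The 10 columns were matched to samples by the names in the labels.

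Groups were compared with limma 3.58.1 (R 4.3.3, trended variance) on log2(CPM + 1) for 6833 genes that reached 1 CPM in 5 or more libraries, two-sided, with Benjamini-Hochberg adjustment over these genes and calls at an adjusted p under 0.05. Log2 differences are ON minus OFF and understate changes of low genes. Ratios are of mean CPM. Intervals of single libraries cover counting error only, as reads without molecular identifiers are not independent molecules. Alternatives were other pseudocounts, filters and scalings, edgeR 4.0.16 and DESeq2 1.42.0 on the recovered reads, a replicate block, library-number runs, and leaving out each library. The procedure was tested on simulated data. Positions and exon lengths come from Ensembl release 115 (WBcel235), matched by gene identifier.

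The members, gene lists and tests were chosen with earlier results of these data known. Named genes were the 6 members, glp-1, up to 3 tested genes per list (called ones by size, then uncalled ones by level), 2 neighbours on each side of cdh-4 and cdh-12, and the 5 genes most correlated with each. A gene that this rule names is not reported here. Other list genes were named after their values were seen.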

Additional observations from a re-analysis of the deposited data

Results flagged for a closer look

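Among 62 groups of 5 libraries examined for named genes, 3 had a library farther from the rest than Dixon's 95% critical value of 0.71. Chance flags about 1 in 20 of independent groups. The groups here share libraries and include cdh-12, chosen with its high library known, so their number gives no verdict on chance. The cdh-12 level of ON replicate 4 (44.2 CPM) had a gap of 0.912 of the group's range, and this library was already known when the gene was chosen, so the flag is a description. The jac-1 level of the same library (0.571 CPM, 10 reads) had a gap of 0.744. The let-2 level of ON replicate 5 (56.4 CPM) had a gap of 0.743.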

How the results depend on the processing

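Across 648 values of named genes under alternatives, 583 kept their direction and side of the threshold, 16 lost a call, 17 gained one and 32 changed sign, all 32 of them for uncalled genes. The sign changes were for hmp-2 (0.011 with TMM, 0.0228 with median-ratio scaling, 0.0067 with edgeR, 0.0179 with DESeq2), kin-19 (0.0097, 0.0217, 0.011 and 0.0232), emb-9 (0.019, 0.0305, 0.0257 and 0.0356) and hmr-1 (-0.0588 with library-number run as a covariate). Leaving out single libraries gave -0.0871 to 0.0644 for hmr-1, -0.0974 to 0.00021 for hmp-2, -0.107 to 0.0435 for kin-19, -0.194 to 0.0874 for emb-9, -0.029 to 0.0822 for mrps-34 and -0.126 to 0.0021 for casy-1. Over 20 alternatives the cdh-4 difference, known when the gene was chosen, ran from -2.29 to -1.33.

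Over all genes, calls higher in ON were 458, and 1129 with TMM, 1219 with median-ratio scaling, 1145 with edgeR, 1323 with DESeq2 and 221 with the 5 CPM filter; calls lower were 847 and stayed within 1.5 times. Leaving out libraries gave 303 to 620 higher. Of the 6 cadherins and catenins 2 were called, but 1 with the 5 CPM filter, which removes cdh-12, and 1 with DESeq2, which gives cdh-12 no adjusted p. Other cadherins called were 1, but 2 with TMM, median-ratio scaling, edgeR and DESeq2, and 0 with the 5 CPM filter. Wnt genes called were 2, but 5 with TMM, 4 with median-ratio scaling, 5 with edgeR, 6 with DESeq2, 1 with the 5 CPM filter and 1 with library-number run. Junction genes called were 2, but 6 with TMM, 5 with median-ratio scaling, 6 with edgeR, 6 with DESeq2 and 1 without a filter. Integrin genes called were 3, but 5 with TMM and 1 with the 5 CPM filter. Basement membrane genes called were 0, but 1 with TMM, median-ratio scaling, the replicate block and library-number run. The cause of these shifts was not tested. Leaving out single libraries gave 1 to 3 Wnt, 1 to 4 junction, 1 to 4 integrin, 0 to 3 basement membrane and 0 to 1 planar polarity and Hippo calls; genes near 1 CPM, such as kin-32 and pat-6, leave the tested set in some of these fits.

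Replicate numbers were not taken as pairs. Deviations of same-numbered libraries correlated at 0.243, -0.0242, 0.235, 0.461 and 0.173 for replicates 1 to 5. These values do not settle whether the numbers mark pairs. With the replicate block 517 genes were higher and 1028 lower, 2 of the 6 genes were called, and 6 of 10 libraries correlated best with their own number. At 17.5 to 38.5 M reads, jac-1 and 6 other cadherin genes were below the filter and were not tested.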
